A study of Mus musculus with 3 samples.

Results

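ATP-binding cassette (ABC) transporters are membrane proteins that use ATP to move lipids, drugs, peptides and metabolites across membranes, and a few soluble relatives work at the ribosome instead. The genes described here were every gene whose name on the array begins with Abca to Abcg followed by a number, and there were 50 of them among 28076 genes, read by 97 of 41156 probes. The array's own descriptions called all 50 ATP-binding cassette genes. They were measured in 3 stromal cell populations sorted from mesenteric lymph nodes of wildtype C57BL/6NCrl mice, with 1 array for each population. Fibroblastic reticular cells (FRC), the fibroblasts of the node's scaffold, were sorted as gp38+ CD31-. Lymphatic endothelial cells (LEC) were gp38+ CD31+, and blood endothelial cells (BEC) were gp38- CD31+. All 3 were depleted of CD45+ cells and gated as CD45- CD24-, their mean sorted purity was 88% with a stated spread of 1.5, and the labels give neither the number of mice behind each RNA nor their age.

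The subfamilies divide the work. ABCA proteins and several ABCG proteins move cholesterol, phospholipids and other lipids out of cells or into vesicles. The ABCB1, ABCC and ABCG2 proteins expel drugs, conjugates and signalling molecules, and in blood vessels of the brain and other barriers they limit what passes from blood into tissue. Members of ABCB and ABCD also sit in mitochondria, peroxisomes and lysosomes, while ABCE1 and the ABCF proteins take part in translation.

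Every level below is the log2 signal of a gene's brightest probe after subtraction of that array's 75th percentile, so 0 is the 75th percentile and 1 unit is a doubling. A level is compared only with the level of the same probe on another array. With 1 array a population there is no replicate error and no test. The only error that can be given is technical: spots of 1 probe repeated on an array differed by an SD of 0.05 to 0.06 log2, and the scanner's own error estimate for members above background was 10.1% at the median and 21.6% at most. In a sorted pool, fewer cells of a type and less RNA per cell cannot be told apart. A member was called where the arrays differed at least 4-fold. Where the gene was not well above background on the dimmer array, a floor stood in for the dimmer value if its own was lower, namely the weakest signal still well above background on that array, and the fold is then written as at least that size.

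The gates held on the arrays. Summed signals, in multiples of the 75th percentile, were highest on the matching array for FRC markers (1436 against 75.2 in LEC and 31.6 in BEC), for LEC markers (197 against 1.53 in FRC and 19.5 in BEC) and for BEC markers (461 against 3.08 in FRC and 85.7 in LEC). Markers of other cells were not absent. Of 8 leukocyte markers, 6 were well above background in FRC and 7 in each endothelial population, with sums of 7.23 for FRC, 11.8 for LEC and 7.65 for BEC, and Itgam was dim on all 3 arrays. All 6 mural cell markers were above background on every array, with sums of 60.03, 56.6 and 46.2. Red cell markers summed to 6.41 in FRC, 32.3 in LEC and 94.0 in BEC. Adipocyte markers summed to 2.68, 1.81 and 8.25, and mesothelial and epithelial markers to 10.3, 5.68 and 3.13.

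Of the 50 members, FRC had 35 well above background and either endothelial population had 34, that is 70%, 68% and 68%, beside 62.1%, 61.3% and 62.1% of all genes. The family split into 29 members above background on all 3 arrays, 10 on some of them and 11 on none. The 11 dim members were Abca4, Abca12, Abca14, Abca15, Abca16, Abca17, Abcb5, Abcc2, Abcc6, Abcc10 and Abcc12. Abca4 is the retinal transporter of photoreceptors, Abca12 supplies lipid to the skin barrier, and Abcc2 exports conjugates into bile. Abca14, Abca15 and Abca16 lie next to each other on chromosome 7. Abca6, Abcg4 and Abcg5 were above background in FRC alone, Abcc8 in BEC alone and no member in LEC alone. Among the 29 members detected everywhere, 15 were highest in BEC, 7 in FRC and 7 in LEC. BEC was highest for 51.7% of these members and for 39.3% of all 15641 genes detected everywhere. The spread between the highest and lowest array was under 1 log2 unit for 15 of the 29, from 1 to 2 units for 4 and at least 2 units for 10. A spread under 1 unit was found for 51.7% of these members and 59.8% of all genes.

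**Figure D1:**
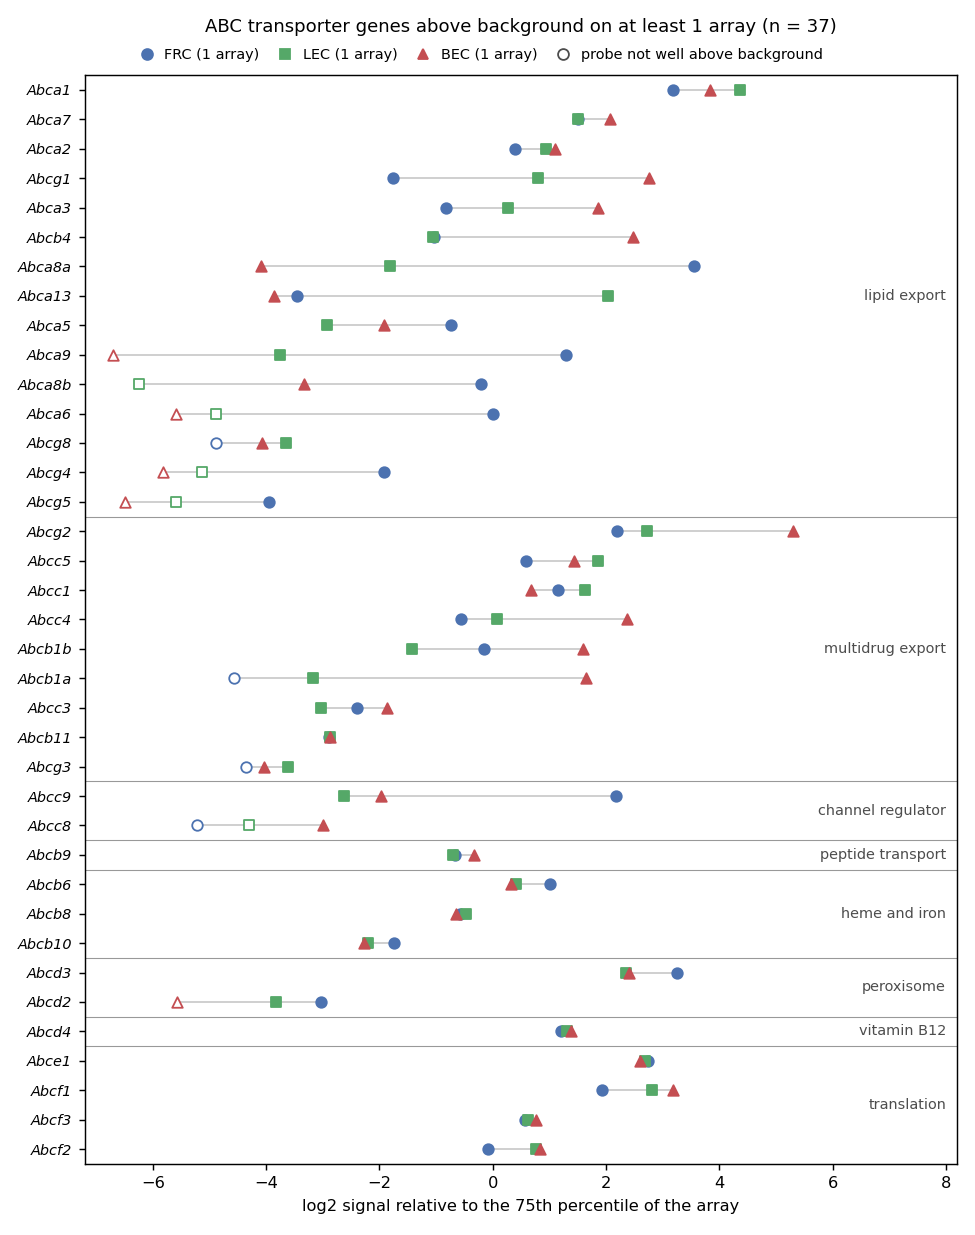
Log2 signal relative to the 75th percentile of the array (x axis) for 37 of the 39 ABC genes above background on at least 1 array (y axis), with 1 symbol per population and an open symbol where the gene's probe was not well above background. The FRC symbols stand far to the right for Abca8a, Abca9, Abca6 and Abcc9, the BEC symbols for Abcb1a, Abcb4, Abcc4 and Abcg2, and the LEC symbol for Abca13, while Abcd3, Abcd4, Abce1 and the ABCF genes have their 3 symbols within 1.26 log2 units.

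In the comparison of LEC with FRC, 38 members could be compared. Abca13 and Abcg1 were at least 4-fold higher in LEC, which is 2 members or 5.26%, beside 4.89% of all 18440 genes compared. Abca5, Abca6, Abca8a, Abca8b, Abca9, Abcc9 and Abcg4 were at least 4-fold higher in FRC, which is 7 members or 18.4%, beside 5.93% of all genes. Both directions together gave 9 members or 23.7%, beside 10.8% of all genes. The median difference of members, LEC minus FRC, was 0.011, with quartiles of -0.76 and 0.68, beside 0.027 for all genes. The median size of the difference without its sign was 0.71 for members and 0.53 for all genes.

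In the comparison of BEC with FRC, 39 members could be compared. Abca3, Abcb1a, Abcb4, Abcc4, Abcg1 and Abcg2 were at least 4-fold higher in BEC, which is 6 members or 15.4%, beside 6.59% of all 18830 genes compared. Abca6, Abca8a, Abca8b, Abca9, Abcc9 and Abcg4 were at least 4-fold higher in FRC, which is also 6 members or 15.4%, beside 7.57% of all genes. Together these were 12 members or 30.8%, beside 14.2% of all genes. The median difference, BEC minus FRC, was 0.19, with quartiles of -0.77 and 0.92, beside 0.095 for all genes, and its median size was 0.87 beside 0.63. These comparisons share the FRC array, so the members common to both lists are not separate observations.

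In the comparison of LEC with BEC, 36 members could be compared. Abca13 and Abca8a were at least 4-fold higher in LEC, which is 2 members or 5.56%, beside 3.39% of all 18322 genes compared. Abcb1a, Abcb1b, Abcb4, Abcc4 and Abcg2 were at least 4-fold higher in BEC, which is 5 members or 13.9%, beside 3.38% of all genes. Together these were 7 members or 19.4%, beside 6.78% of all genes. The median difference, LEC minus BEC, was -0.11, with quartiles of -1.04 and 0.41, beside -0.066 for all genes, and its median size was 0.60 beside 0.44. In all, 15 members were called in at least 1 comparison. By the role assigned to each member, with these results known, 10 of the 15 were lipid exporters, 4 drug and conjugate exporters and 1 a channel regulator. These classes hold 21, 14 and 2 members, of which 15, 9 and 2 were above background on some array.

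**Figure D2:**
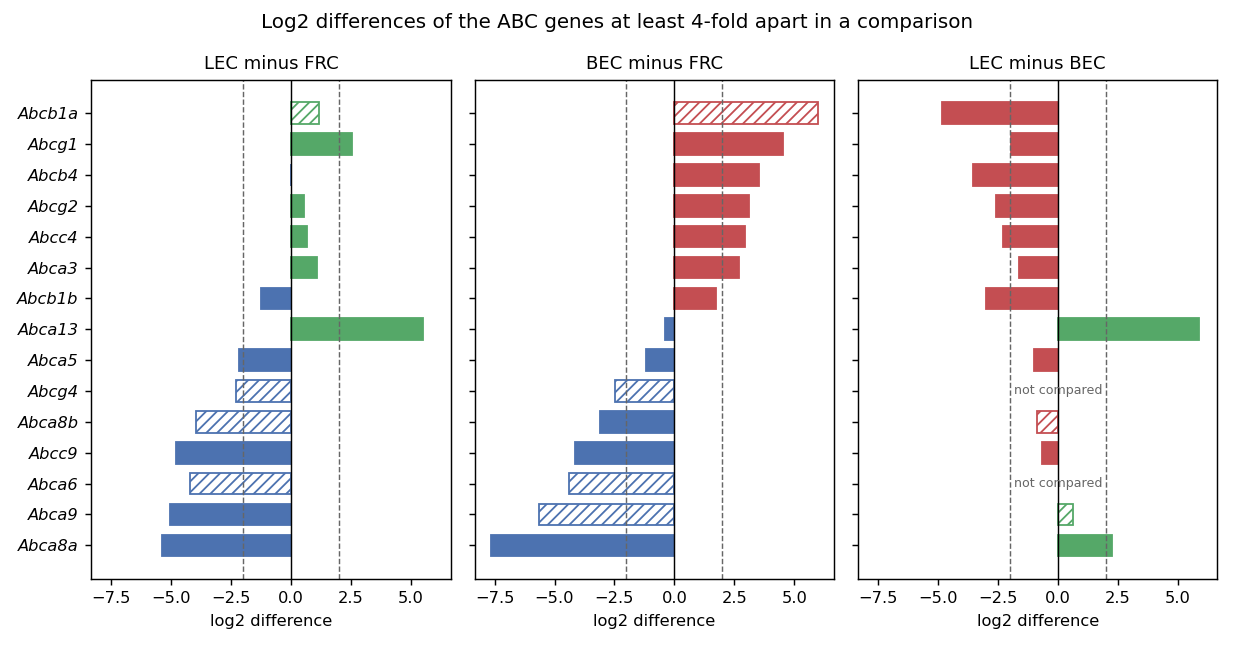
Log2 difference between arrays (x axis, 1 panel per comparison) for the 15 ABC genes at least 4-fold apart in some comparison (y axis), with dashed lines at the 4-fold size and hatched bars where the value is a lower bound because the dimmer array was not well above background. Bars on the FRC side reach 7.65 log2 units for Abca8a against BEC, and the bars of Abca13 point to LEC in both panels that hold LEC.

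The lipid exporters of the ABCA6 group gave the largest differences toward FRC. Abca8b, Abca8a, Abca9, Abca6 and Abca5 are neighbours in that order on chromosome 11 and encode related proteins whose substrates are poorly defined. Abca8a, read by a probe at chr11:109886948-109886997 of mm9, had a level of 3.55 in FRC, -1.82 in LEC and -4.10 in BEC. FRC stood far above both endothelial populations, 41.4-fold over LEC and 201-fold over BEC, and LEC was 4.85-fold over BEC. Abca9, read at chr11:109962780-109962839, had 1.29 in FRC and -3.75 in LEC and was dim in BEC at -6.70. It was 32.9-fold higher in FRC than LEC and at least 50.7-fold higher than BEC. Abca6, read at chr11:110097824-110097883, had 0.0095 in FRC and was dim in LEC at -4.89 and in BEC at -5.59, at least 18.5-fold and at least 20.9-fold lower. Its second probe, at chr11:110041564-110041623, read -0.091 in FRC and was dim in both endothelial populations. Abca5, a lysosomal member of the group, had -0.74 in FRC, -2.92 in LEC and -1.93 in BEC. FRC was again highest, 4.54-fold over LEC but only 2.28-fold over BEC, which is below the call. With a normexp background correction the Abca5 difference, LEC minus FRC, was -1.10 and the Abca8a difference, LEC minus BEC, was 1.03, both below the call. The same correction reduced the differences of Abca8a, Abca9 and Abca6 from FRC without ending those calls. In BEC minus FRC they were -5.59, -3.83 and -2.46 log2, and in LEC minus FRC -4.56, -3.32 and -2.23. The mean over probes gave -2.71 for Abca9 in BEC minus FRC.

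Abca8b was less certain than its neighbours. Its brighter probe read -0.21 in FRC and -3.34 in BEC and was dim in LEC at -6.25, which put FRC at least 15.8-fold over LEC and 8.71-fold over BEC. A second Abca8b probe went the other way between FRC and BEC, dim in FRC at -4.65 and in LEC at -6.39 but above background in BEC at -2.51. With the mean over the probes of the gene the difference from FRC fell to -1.77 in LEC and -0.49 in BEC, neither of them a call. A normexp background correction also ended both calls, at -1.90 in LEC and -1.85 in BEC. For Abca9 all 3 probes on 1 transcript read highest in FRC, at -3.83, -2.45 and 1.29 from the 5′ to the 3′ side, and a further Abca9 probe was dim on every array. The Abca8b probe that put BEC above FRC, unlike the brighter one, and an Abca9 probe that kept the order of its brightest probe, are shown here. Each crosses an intron, so it reads spliced transcript. The Abca8b probe covers chr11:109814003-109814869 and the Abca9 probe with the middle level covers chr11:109997494-109999482, both mm9, and each holds 60 bases.
Abca8b second probe: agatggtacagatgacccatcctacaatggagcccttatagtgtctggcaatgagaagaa
Abca9 middle probe: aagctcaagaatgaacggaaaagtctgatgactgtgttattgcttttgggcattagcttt

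**Figure D3:**
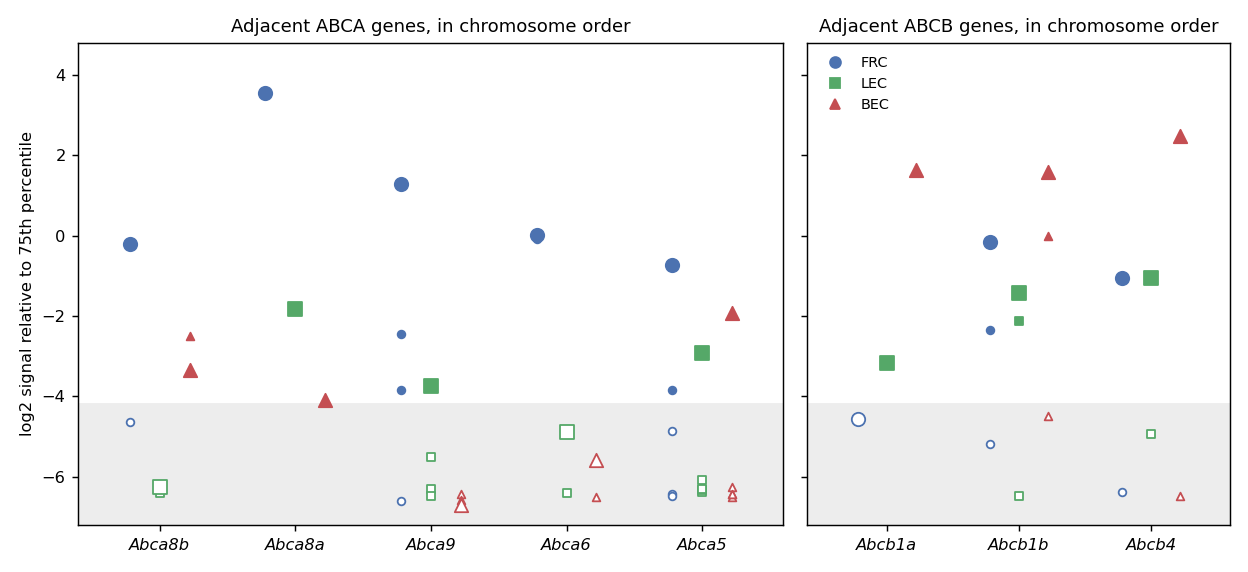
Log2 signal relative to the 75th percentile (y axis) for 5 adjacent ABCA genes and 3 adjacent ABCB genes (x axis, in chromosome order and not to scale), where the large symbol is the brightest probe of a gene, small symbols are its other probes, open symbols are probes not well above background and the grey band lies below -4.20, the highest of the arrays' lowest values well above background. The brightest probes of all 5 ABCA genes are highest in FRC and those of all 3 ABCB genes are highest in BEC.

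The RefSeq promoters of 3 of these neighbours, Abca8b, Abca8a and Abca9, are shown next to each other, since the genes share a direction. Each line is the 250 bases before the transcription start on GRCm38.p6, on the minus strand of chromosome 11, at chr11:109995846-109996095 for Abca8b, chr11:110095938-110096187 for Abca8a and chr11:110168154-110168403 for Abca9. Capitals mark matches on either strand to 5 motifs, namely the TATA box (TATAAA), the CCAAT box (CCAAT), the GC box (GGGCGG), an E-box (CACGTG) and an ETS core (GGAAGT).
Abca8b: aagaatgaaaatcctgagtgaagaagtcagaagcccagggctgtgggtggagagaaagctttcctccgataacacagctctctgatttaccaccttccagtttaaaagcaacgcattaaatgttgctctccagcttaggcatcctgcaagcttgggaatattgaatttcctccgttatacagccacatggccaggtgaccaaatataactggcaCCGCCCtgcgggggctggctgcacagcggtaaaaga
Abca8a: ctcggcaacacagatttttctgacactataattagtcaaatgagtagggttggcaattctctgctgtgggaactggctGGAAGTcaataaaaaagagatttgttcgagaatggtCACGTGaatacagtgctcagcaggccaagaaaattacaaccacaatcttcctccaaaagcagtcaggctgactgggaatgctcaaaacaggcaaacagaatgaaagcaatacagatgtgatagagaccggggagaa
Abca9: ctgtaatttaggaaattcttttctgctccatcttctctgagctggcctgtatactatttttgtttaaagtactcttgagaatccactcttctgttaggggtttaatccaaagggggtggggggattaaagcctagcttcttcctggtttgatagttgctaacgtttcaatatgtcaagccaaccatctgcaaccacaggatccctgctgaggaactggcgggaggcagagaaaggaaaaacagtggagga
Abca8b held 1 match, GGGCGG on the opposite strand 36 bases before the start. Abca8a held GGAAGT and CACGTG, 172 and 136 bases before the start, and Abca9 held none of the 5. No motif was common to the 3 windows, whose GC contents were 48.8%, 43.2% and 44.4%. Of all 32851 promoter windows, 32.7% held GGGCGG, 19.7% held GGAAGT and 6.02% held CACGTG. Over the 45 windows of 38 member genes, the shares were 44.4%, 22.2% and 11.1%.

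The channel regulator Abcc9 was a further gene of the FRC pattern. It encodes SUR2, the subunit that makes ATP-sensitive potassium channels respond to nucleotides and to drugs, and it is well known from smooth muscle and pericytes. Abcc9, at chr6:142537737-142537796, had 2.18 in FRC against -2.62 in LEC and -1.97 in BEC. FRC exceeded LEC 27.8-fold and BEC 17.7-fold (-3.67 and -3.41 log2 with normexp), and the other 2 probes kept that order, with 1.00 and 0.52 in FRC against values from -3.89 to -3.11 in the endothelia. The pore partner of SUR2, Kcnj8, had 4.18 in FRC, 1.39 in LEC and 1.38 in BEC, 6.94-fold and 6.97-fold higher in FRC. The other regulator, Abcc8 (SUR1 of the pancreatic beta cell), was dim in FRC at -5.22 and in LEC at -4.31 and had -2.99 in BEC, at least 2.54-fold and at least 2.31-fold higher there. Its pore partner Kcnj11 had -3.62 in FRC and -2.52 in BEC and was dim in LEC at -4.48. Among the mural cell markers, Des was highest in FRC with 2.61 against -1.06 in LEC and 0.61 in BEC, Notch3 had 2.52, 0.33 and 2.52, and Rgs5 had 1.19, 1.35 and -1.003. Acta2 was highest in LEC, with 5.48, 5.67 and 5.17, and BEC was highest for Myh11, with -0.62, -0.12 and 0.89, and for Cspg4, with -0.75, -1.26 and -0.56. The part of mural cells in the Abcc9 difference was not tested.

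Abcg4, a sterol exporter best known from the brain, had -1.92 in FRC and was dim in LEC at -5.14 and in BEC at -5.82, at least 4.86-fold and at least 5.51-fold lower. With a normexp background correction these differences fell to -0.82 and -1.12, below the call. Abcg5 and Abcg8, the paired sterol exporters of liver and intestine, lie side by side on chromosome 17 and stayed close to background. Abcg5 had -3.94 in FRC and was dim elsewhere, while Abcg8 was dim in FRC and had -3.65 in LEC and -4.07 in BEC.

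Several drug and conjugate exporters were among the members highest in BEC, beside lipid exporters such as Abcb4, Abca3 and Abcg1. Abcb1a and Abcb1b encode the mouse P-glycoproteins, which pump many drugs out of cells and are prominent in brain capillaries, and Abcb4 next to them encodes the phospholipid floppase needed for bile. Abcb1a, read at chr5:8747979-8748038 of mm9, was dim in FRC at -4.56 and had -3.17 in LEC and 1.64 in BEC. BEC was at least 63.0-fold over FRC and 28.1-fold over LEC. With a normexp background correction the differences were smaller than these folds, at 3.96 log2 over FRC and 3.39 over LEC. Abcb1b had -0.16 in FRC, -1.42 in LEC and 1.59 in BEC. BEC was 8.07-fold over LEC and 3.36-fold over FRC, which is below the call. A second Abcb1b probe read -2.35, -2.12 and -0.01 and so also put BEC highest. Abcb4, at chr5:8959108-8959167, had -1.04 in FRC, -1.05 in LEC and 2.48 in BEC, so that BEC was 11.5-fold over both. A second Abcb4 probe was dim on every array. Abcb1a and Abcb1b are close relatives, and how far each probe reads the other's transcript was not tested.

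The promoters of these 3 neighbours on chromosome 5 are shown for the same reason as those on chromosome 11. Each is the 250 bases before the start on the plus strand of GRCm38.p6, at chr5:8566841-8567090 for Abcb1a, chr5:8797897-8798146 for Abcb1b and chr5:8893471-8893720 for Abcb4, with capitals as before.
Abcb1a: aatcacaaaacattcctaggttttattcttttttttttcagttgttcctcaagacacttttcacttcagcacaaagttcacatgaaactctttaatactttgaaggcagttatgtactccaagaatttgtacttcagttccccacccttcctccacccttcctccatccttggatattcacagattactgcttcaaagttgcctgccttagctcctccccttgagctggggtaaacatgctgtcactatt
Abcb1b: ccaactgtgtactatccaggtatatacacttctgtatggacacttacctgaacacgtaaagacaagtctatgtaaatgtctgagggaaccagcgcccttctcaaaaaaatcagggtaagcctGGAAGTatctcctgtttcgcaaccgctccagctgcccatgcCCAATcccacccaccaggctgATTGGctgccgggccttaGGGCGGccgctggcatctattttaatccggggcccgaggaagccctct
Abcb4: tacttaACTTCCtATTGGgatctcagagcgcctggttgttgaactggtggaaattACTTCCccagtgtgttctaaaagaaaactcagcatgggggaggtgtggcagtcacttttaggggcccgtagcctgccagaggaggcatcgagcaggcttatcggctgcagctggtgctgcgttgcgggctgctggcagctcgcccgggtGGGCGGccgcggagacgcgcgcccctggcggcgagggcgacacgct
Abcb1a held none of the 5 motifs. Abcb1b held GGAAGT 128 bases before the start, CCAAT at 87 and, on the opposite strand, at 66, and GGGCGG at 48. Abcb4 held GGAAGT on the opposite strand at 244 and 195, CCAAT on the opposite strand at 237 and GGGCGG at 46. Abcb1b and Abcb4 thus shared 3 motifs that the Abcb1a window lacked, and their GC contents were 52.8% and 61.6% against 40.4%. CCAAT occurred in 33.8% of all windows and 28.9% of member windows, and TATAAA in 12.4% and 11.1%.

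Abcg2, the breast cancer resistance protein, had 2.19 in FRC, 2.73 in LEC and 5.30 in BEC. It was 8.64-fold higher in BEC than FRC and 5.93-fold higher than LEC. A second probe gave -0.43, 0.64 and 2.92 in the same order, with BEC highest again. Both probes cross introns and are shown here because their separate exons gave the same order of arrays. The first lies at chr6:58640579-58642261 and the second at chr6:58628344-58633274 of mm9.
Abcg2 brighter probe: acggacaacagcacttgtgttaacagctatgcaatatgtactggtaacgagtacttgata
Abcg2 second probe: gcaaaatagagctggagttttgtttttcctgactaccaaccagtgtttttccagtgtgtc

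Abcc4 exports cyclic nucleotides and prostaglandins. It had -0.57 in FRC, 0.08 in LEC and 2.37 in BEC, 7.67-fold higher in BEC than FRC and 4.90-fold higher than LEC. Its second probe was dim in FRC at -5.82 and LEC at -5.63 and read -2.64 in BEC. Abca3, the phospholipid transporter of lung lamellar bodies, had -0.82 in FRC, 0.26 in LEC and 1.86 in BEC, 6.42-fold higher in BEC than FRC. Its other probes did not all give that order. One read -1.10, 0.71 and 0.80, and another was dim in FRC and read -2.67 in LEC and -2.64 in BEC. The last read -3.04 in FRC, was dim in LEC and read -3.65 in BEC, so FRC was highest there. With the mean over probes the BEC minus FRC difference was 1.58, below the call. Abcg3, a rodent gene related to Abcg2, stayed near background at -3.62 in LEC and -4.03 in BEC and was dim in FRC.

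Of the 14 members grouped as drug and conjugate exporters, 9 were above background on some array and 4 were called, all of them in BEC, with 3 of these over FRC and 4 over LEC. Over all genes 6.59% were called higher in BEC than FRC and 3.38% higher in BEC than LEC. Abcb1a, Abcc4 and Abcg2 were called over both other populations and Abcb1b over LEC. Abcc1, the exporter of leukotriene C4 and glutathione conjugates, had 1.15 in FRC, 1.62 in LEC and 0.68 in BEC. By its brightest probe Abcc5, which exports cyclic GMP, had 0.59, 1.85 and 1.44 and was 2.39-fold higher in LEC than FRC. Another Abcc5 probe read -2.61, -1.63 and -2.26 and kept that order of arrays. The remaining Abcc5 probe read -2.02, -3.13 and -4.04, which put FRC highest and BEC lowest, with BEC minus FRC at -2.02 log2. The direction for Abcc5 thus depended on the probe. Abcc3 had -2.39, -3.04 and -1.86, and the bile salt exporter Abcb11 had -2.90, -2.88 and -2.88.

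Genes that work with these exporters at vascular barriers were read beside them. Of 16 barrier endothelium genes, 15 could be compared between BEC and FRC, with 4 higher in BEC and 2 in FRC, and 14 between LEC and BEC, with 2 higher in BEC and none in LEC. The shares over all genes were 6.59%, 7.57%, 3.38% and 3.39% in the same order. Their median difference was 1.33 from FRC to BEC, and LEC minus BEC it was -0.70. Mfsd2a, the lipid transporter of brain capillaries, was dim in FRC and LEC and had -1.36 in BEC, at least 7.86-fold and at least 7.13-fold higher, and the endothelial factor Sox17, also one of the BEC markers, had -3.47 in FRC, -0.14 in LEC and 4.84 in BEC. The junction genes Cldn5 and Lsr were high in both endothelia, with 1.62, 8.50 and 7.76 for Cldn5 and -0.03, 2.04 and 2.69 for Lsr. Foxf2 and Slco1c1 went the other way. Foxf2, a pericyte factor in the brain, had 0.06 in FRC and was dim in both endothelia, at least 19.1-fold below in LEC and at least 21.6-fold in BEC. Slco1c1, a thyroid hormone transporter, had -2.17 in FRC and was dim in LEC and BEC, at least 4.08-fold and at least 4.63-fold lower. Of 9 regulators of drug-handling genes, 8 could be compared between BEC and FRC, with 2 higher in BEC and 1 in FRC. None of 7 was called between LEC and BEC, and the shares of all genes are those just given. Between LEC and FRC, 1 of 8 was higher in LEC and none in FRC, beside 4.89% and 5.93% of all genes. Ahr had 0.17 in FRC, 1.49 in LEC and 3.06 in BEC. Its level was 7.39-fold higher in BEC than FRC. Pparg had 1.25, 3.79 and 3.81, and Ppara, at -2.27 in FRC and dim in both endothelia, was at least 4.32-fold higher in FRC than BEC. Markers of other cells were mixed between BEC and FRC. Of 8 leukocyte markers, Ptprc and Cd79a were 6.04-fold and 7.70-fold higher in BEC, while BEC minus FRC was 0.26 for Adgre1 as a bound, 0.08 for Csf1r, -0.35 for Lyz2 and -0.57 for Cd3e, and Itgam was dim. Of the adipocyte markers, Cidec and Lipe were 17.7-fold and 11.4-fold higher in BEC, Plin1 was 12.5-fold higher in FRC, Adipoq differed by 0.42 and Lep was dim. The red cell gene Hba-a1 was 14.7-fold higher in BEC. Of 6 mesothelial and epithelial markers, 4 were called higher in FRC than BEC and none in BEC, with a median of -2.48 for BEC minus FRC. The part of these cells in the BEC and FRC differences was not tested.

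Abca13 was the only member called in LEC over both other populations. It encodes an exceptionally long ABCA protein whose function is little known. Its brightest probe, at chr11:9583640-9583699 of mm9, had -3.46 in FRC, 2.03 in LEC and -3.86 in BEC. LEC was 44.9-fold over FRC and 59.2-fold over BEC, which had nearly the same low level. A second probe was dim in FRC at -6.60 and BEC at -6.34 and read -0.17 in LEC, and its last probe was dim on every array. The difference ranged from 3.87 to 6.24 log2 over FRC and from 3.83 to 6.22 over BEC under the alternative processing.

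Cellular cholesterol export runs through Abca1, which loads lipid onto apolipoproteins, and Abcg1, which passes sterol to high-density lipoprotein. Abcg1, at chr17:31252580-31252639, had -1.76 in FRC, 0.80 in LEC and 2.76 in BEC, 5.88-fold higher in LEC than FRC and 22.9-fold higher in BEC than FRC. The 3 arrays stood in separate steps, with BEC 3.89-fold over LEC, just under the call. Abca1 had another order, with 3.18 in FRC, 4.36 in LEC and 3.84 in BEC. Its largest step was 2.26-fold. With a normexp background correction the Abcg1 difference between LEC and FRC was 1.996, just under the call. Abca2, of lysosomal lipid traffic, had 0.38, 0.93 and 1.10, and Abca7, a phospholipid exporter, had 1.50, 1.50 and 2.08.

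Of 20 partner genes of cholesterol handling, 19 could be compared. For LEC minus FRC, 2 were higher in LEC and 1 in FRC with a median of -0.51, beside 4.89% and 5.93% of all genes. For BEC minus FRC, 3 were higher in BEC and 1 in FRC with a median of 0.01, beside 6.59% and 7.57% of all genes. For LEC minus BEC, 2 were higher in BEC and none in LEC with a median of 0.09, beside 3.38% and 3.39% of all genes. Scarb1, the receptor for high-density lipoprotein, had 1.39 in FRC, 2.33 in LEC and 6.38 in BEC, 31.8-fold over FRC and 16.6-fold over LEC. Pltp, which transfers phospholipid between lipoproteins, had -0.23, -2.85 and 2.97, with BEC highest and LEC lowest. Nceh1, a cholesterol ester hydrolase, had 1.19, 4.11 and 2.20, 7.58-fold higher in LEC than FRC. Mylip, which degrades lipoprotein receptors, had 1.29, 3.998 and 3.47, and Cyp27a1 was 5.07-fold higher in FRC than BEC. Apoe, an acceptor of exported lipid, was close on all arrays at 6.81, 6.17 and 6.95. The sterol-sensing receptors that induce Abca1 and Abcg1 had small steps, with 0.84, 1.14 and 2.19 for Nr1h2 and 1.56, 0.81 and 0.72 for Nr1h3.

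A further 13 members were grouped under translation, peroxisomes, heme and iron, vitamin B12 or peptide transport, and none was called. Over all genes 10.8% were called between LEC and FRC, 14.2% between BEC and FRC and 6.78% between LEC and BEC. The grouping was made with these results known, so the shares beside all genes describe these members and test nothing. It leaves out Abca5 and Abca2, which are lysosomal but stand with the lipid exporters. By their brightest probes 12 of the 13 were above background on all arrays, and 35 of the 36 differences of those 12, or 97.2%, were under 2-fold, beside 75.6% of the differences of all genes detected everywhere. The exception was Abcf1, which takes part in translation initiation, with 1.92 in FRC, 2.80 in LEC and 3.18 in BEC, 2.40-fold higher in BEC than FRC. Abce1, which splits ribosomes after translation, had 2.75, 2.69 and 2.59. A second Abce1 probe read -0.97 in FRC, -1.25 in LEC and -3.36 in BEC, which put BEC lowest by more than 4-fold, unlike the brightest probe. Abcf2 had -0.09, 0.76 and 0.84, and Abcf3 had 0.58, 0.62 and 0.76. A second Abcf2 probe put BEC 1.24 log2 over FRC. A second Abcf3 probe read 0.05, -0.40 and -0.21, with FRC highest. Of the mitochondrial and heme genes, Abcb6 had 1.01, 0.41 and 0.32, Abcb8 had -0.58, -0.47 and -0.65, and Abcb10 had -1.74, -2.19 and -2.28. By these brightest probes none of the 3 differed by a doubling between any arrays. A second Abcb10 probe read -3.98 in FRC and -3.43 in BEC and was dim in LEC at -4.49, which put BEC highest.

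Of the peroxisomal fatty acid importers, Abcd3 had 3.25 in FRC, 2.35 in LEC and 2.40 in BEC. Another Abcd3 probe read -2.72 in FRC and -3.83 in BEC and was dim in LEC at -4.93, and a further one read -3.38, -3.51 and -4.02. Abcd2 had -3.04 in FRC and -3.83 in LEC and was dim in BEC at -5.58, at least 2.53-fold below FRC. Abcd4, which releases vitamin B12 from lysosomes, had 1.21, 1.31 and 1.38. Abcb9, a lysosomal peptide transporter, had -0.67, -0.69 and -0.33. Among 15 other peroxisome genes, Pex11a alone was called, 6.82-fold higher in FRC and 4.35-fold higher in LEC than in BEC. No gene was called among 7 of vitamin B12 handling or 5 of ribosome recycling. The shares called in either direction over all genes were 10.8% for LEC with FRC, 14.2% for BEC with FRC and 6.78% for LEC with BEC. At those shares lists this short hold few calls. Of 16 genes of heme and iron-sulphur synthesis, 2 were called, both higher in BEC than FRC, beside 6.59% of all genes. They were Alas2, at least 10.8-fold higher, and Slc25a37, 5.02-fold higher. Both are abundant in red cell precursors, and the part of the red cell markers in them was not tested.

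Tap1 and Tap2 are ABC transporters under other names, which load peptides for MHC class I, and were read with 12 genes of peptide loading. None of the 12 was called in any comparison, beside 10.8%, 14.2% and 6.78% of all genes for LEC with FRC, BEC with FRC and LEC with BEC. Their median difference from FRC was 0.43 in LEC and 0.59 in BEC, with -0.16 for LEC minus BEC. Tap1 had -0.05 in FRC, 1.38 in LEC and 1.56 in BEC. Tap2 had 1.84, 3.07 and 3.21. Both endothelial populations were above FRC in each gene, and the largest step was 3.05-fold. Cftr, the chloride channel of the ABCC group, was dim.

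Other probes of the same gene gave a check on level and direction. In 22 of 24 genes with several probes on 1 transcript the brightest was the probe nearest the 3′ end, the exceptions being Abcf3 and Abcg8. Abca5 read -0.74 in FRC at base 7929 of its transcript and -3.83 at base 4771. Where a call could be checked with a further probe above background, that probe had the same sign for 1 of 1 member called in LEC over FRC, 4 of 4 in FRC over LEC, 2 of 3 in BEC over FRC, 3 of 4 in FRC over BEC, 1 of 1 in LEC over BEC and 3 of 3 in BEC over LEC. The exceptions were the probes of Abca3 and Abca8b given above.

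**Figure D4:**
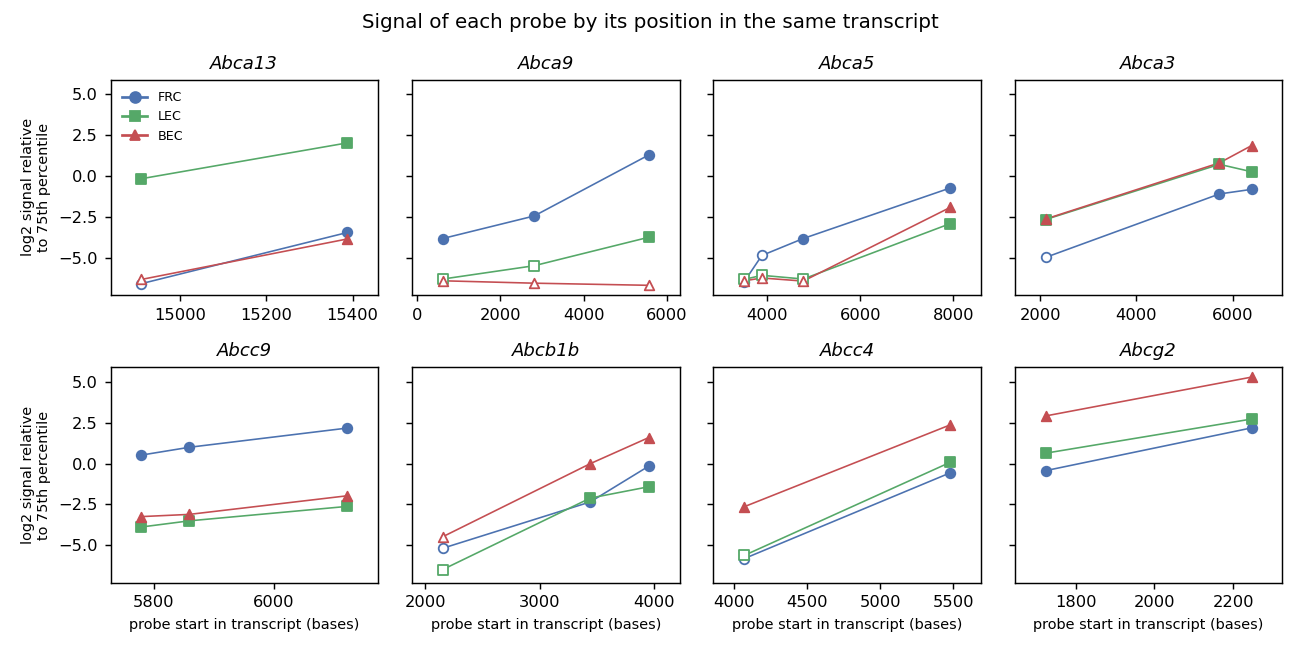
Log2 signal relative to the 75th percentile (y axis) by the start of each probe in its transcript in bases (x axis, 5′ to 3′) for 8 called ABC genes with several probes on 1 transcript, with open symbols where a probe was not well above background. Most lines rise toward the 3′ end, apart from LEC in Abca3 and the dim BEC probes of Abca9, and the FRC line lies on top at each detected probe of Abca9 and Abcc9, the LEC line in Abca13 and the BEC line in Abcc4 and Abcg2.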

How the data were processed

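RNA of 3 sorted populations was hybridised to single-colour Agilent arrays of 60-base probes, 1 array each and all on 1 slide. The deposited scanner files hold intensity values, background-subtracted and detrended within the array and not scaled between arrays per the file headers, and the submitters' processing notes name Agilent Feature Extraction, version 10.7.3.1. No spot was saturated. The deposited series matrix also holds intensity by the authors and was used as an alternative. It correlated with the scanner values at 0.99998 to 0.99997 on the log2 scale. That was over the 22761 probes above the matrix's lowest value of 15 on all 3 arrays, so dimmer probes were left out. The number of arrays limits the precision.

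Outlier spots were removed, which left out 18 probes, replicate spots were averaged, and log2 of the deposited intensity was taken minus the array's 75th percentile (387 for FRC, 268 for LEC, 361 for BEC). The lowest signals well above background were 19.1, 14.6 and 17.4. Gene names were updated through RefSeq accessions (GRCm38.p6), which matched 49 of 50 members and changed no member's name. A gene was compared where any of its probes exceeded background well on at least 1 of both arrays, and called at 4-fold where its own probe was so on the brighter array. Probe positions are on mm9 per the file headers, promoters and gene order come from RefSeq GRCm38.p6, and no position was moved between builds. Abca6 has no promoter entry there. Some genes are counted but not reported here by name.

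Named were all members at least 4-fold apart, examples of each role below that size, and, from lists of partner genes, those at least 4-fold apart or paired with a named member. The members, roles and lists were chosen with earlier results of these data known. Alternatives were normexp background correction with an offset of 50 (limma 3.58.1 in R 4.3.3), quantile normalization, median scaling, the series matrix, no filter on dim probes, the mean over probes, and, chosen after seeing the data, division by the spike-in slope of each array. The other steps used Python 3.11.15, and the calling steps were tested on simulated data.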

Additional observations from a re-analysis of the deposited data

How the results depend on the processing

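Of 28 calls of members, 20 stayed calls under all 7 alternatives and none reversed. A normexp background correction left 1 member higher in LEC and 4 higher in FRC between those 2, and 1 higher in LEC than BEC. It ended the calls of Abca5, Abca8b, Abcg1 and Abcg4 between LEC and FRC, of Abca8b and Abcg4 between BEC and FRC, and of Abca8a between LEC and BEC (1.03). It moved the median of all genes by 0.10 and gave a member median of 0.079 for LEC minus FRC. The mean over probes ended Abca3 and both Abca8b calls and gave a member median of 0.022 for BEC minus FRC, and -0.28 LEC minus BEC. Without a filter on dim probes the member medians were 0.10 for LEC minus FRC and 0.097 for BEC minus FRC, and the median of all genes moved by 0.17 for LEC minus BEC. Median scaling gave -0.17 for LEC minus BEC, and division by the spike-in slope (0.821 for FRC, 1.00 for LEC, 0.919 for BEC) gave 0.17, 0.30 and -0.24 for the comparisons in the order LEC with FRC, BEC with FRC, LEC with BEC, and ended the Abcg4 call between LEC and FRC. The cause was not tested. Among the differences compared above 10 further calls appeared, where a call was counted again under each setting that gave it. Quantile normalization and the series matrix kept each call. The member median for LEC minus FRC lies near 0, so its sign depends on the scale: it was -0.016 with median scaling. No paired analysis was possible because each population had 1 array.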

Other observations

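Glutathione chemistry supplies several ABCC exporters with cargo. Of 17 genes of glutathione synthesis and conjugation, 6 were at least 4-fold higher in FRC than LEC and 1 in LEC, and 6 were higher in FRC than BEC and 1 in BEC. Between LEC and BEC, 2 of 16 were higher in LEC and 3 in BEC. The shares of all genes compared are those given with the ABC counts, and the list's median differences from FRC were -0.65 in LEC and -1.25 in BEC, with 0.13 LEC minus BEC. Gstm2, a conjugating transferase, had 6.34 in FRC, 2.11 in LEC and 4.12 in BEC. Other transferases had the same order of FRC over the endothelia: 6.55, 3.96 and 4.10 for Mgst1, 6.57, 4.09 and 4.09 for Gstm1, 4.16, 2.08 and 1.18 for Gstm5, and 2.73, 0.29 and -0.78 for Gstt1. Ggt1 had -1.95 in FRC and -1.80 in LEC and was dim in BEC, at least 5.37-fold and at least 5.99-fold lower. Mgst2 went the other way, with -2.94 in FRC, -1.47 in LEC and 1.41 in BEC, 20.4-fold higher in BEC than FRC.

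Ltc4s makes leukotriene C4, a cargo of Abcc1. It had 1.03 in FRC, 3.85 in LEC and 0.43 in BEC, 7.08-fold higher in LEC than FRC and 10.71-fold higher than BEC. By its brightest probe Abcc1 was also highest in LEC, by under 2-fold over either array. Another Abcc1 probe read -1.35 in FRC, -1.14 in LEC and -2.97 in BEC, with LEC 1.84 log2 over BEC. A further one read -1.54, -1.57 and -2.92, with FRC highest and LEC 1.35 log2 over BEC. Ggt5, which trims leukotriene C4 outside the cell, was lowest in LEC, with 3.29 in FRC, -0.67 in LEC and 1.94 in BEC, 15.54-fold higher in FRC than LEC.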
